A study of Canis lupus familiaris with 6 samples.

Results

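Metallothionein MT1E was examined together with 9 other genes of the metal and oxidative stress response, MT2A, MTF1, HMOX1, NQO1, FTL, FTH1, SOD1, SOD2 and NFE2L2, in canine mammary tumor cells grown with or without myeloid-derived suppressor cells (MDSCs). Every non-control probe whose gene name in the scanner output equalled 1 of these 10 symbols was taken, which gave 27 of the 43603 probes on the array and 9 of its 13685 gene symbols. No probe carried the name MT2A. MT1E had been chosen because it was bright and higher in co-culture, so its co-culture values are given as a description with no test.

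The cells were 3 established canine mammary tumor lines: P114, from an anaplastic cancer, CMT-U27, from a simple carcinoma, and CMT-U309, from a spindle cell tumor. Tumor cells were grown alone (monoculture) or below a transwell insert that held MDSCs, which had been sorted from healthy dogs' blood, at 1 MDSC to 5 tumor cells, in RPMI medium with 10% fetal bovine serum. The co-culture lasted 48 h according to the methods and at least 72 h according to the sample labels. For each line, RNA from both cultures was labelled with Cy3 and Cy5 and hybridized to 2 arrays of opposite dye orientation (replicate 1 with the co-culture in Cy5, replicate 2 with the co-culture in Cy3). The 6 arrays therefore gave 12 channels but only 1 pair of cultures per line, and the sources do not say that the 2 arrays of a line came from separate cultures, so p-values measure the spread between these 3 lines or 6 RNA samples only.

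Probes per gene were 3 for MT1E, 1 each for MTF1 and HMOX1, 2 each for NQO1 and SOD1, 4 for FTL, 8 for FTH1 and 3 each for SOD2 and NFE2L2. All passed the filter on low values, and 25 of the 27 were well above background in every channel.

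Metallothioneins are small cysteine-rich proteins that bind zinc and copper. Their transcription is switched on by MTF1, a zinc-sensing transcription factor, and also responds to oxidative stress and glucocorticoids. NFE2L2 (NRF2) is the transcription factor that drives many antioxidant genes, among them HMOX1 (heme oxygenase 1), NQO1 (a quinone reductase) and the ferritin chains FTL and FTH1, which store iron. SOD1 and SOD2 are the cytosolic and the mitochondrial superoxide dismutase. In mammary tumors, metallothionein levels vary widely between tumor types.

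The probe sequences show how far the metallothionein probes resemble each other. Positions are those of the array design on canFam2, and the design gives no exon or UTR annotation for them. The probe A_11_P0000019891 (RefSeq NM_001003173) lies at chrUn:85562721-85562780 on an unplaced stretch, and A_11_P052986 and A_11_P201618 (both Ensembl transcript ENSCAFT00000014488) lie at chr2:62483112-62483171 and chr2:62483188-62483247. They are called here the chrUn probe, chr2 probe A and chr2 probe B. A stretch of 30 bases of the chrUn probe aligned with chr2 probe B with 3 mismatches, shown in capitals. Over the whole overlap of 57 bases 39 matched (68.4%), so these probes are related but not identical in sequence. Which transcripts each probe binds was not tested. The first 30 bases of chr2 probe A and of the MT2A probe described below are shown to make clear that these read other stretches.
MT1E, chrUn probe: tgtgtgagaacaCcTgttcctgatgtaTat
MT1E, chr2 probe B: tgtgtgagaacaTcCgttcctgatgtaAat
MT1E, chr2 probe A: ccctgatccagttgctacattcctgtttct
MT2A probe: cattcctagttattttccctatgaaataat

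The MT2A probe, A_11_P0000019868 at chr2:62488004-62488063, is named MT1H in the scanner output. Its accession, NM_001003149, belongs to MT2A in the RefSeq gene table (assembly UU_Cfam_GSD_1.0), where MT1H is an older synonym. It fell outside the selection by name, and it is reported beside the members because it measures the missing gene. The longest run it shared with any MT1E probe was 9 bases. A second probe named MT1H, an expressed sequence tag with no position, was detected in 0 of the 12 channels, where detected means flagged well above background by the scanner software.

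The arrays were of uneven agreement. Between 53.0% and 81.0% of spots were well above background per channel. After both arrays of a line had been turned to co-culture over monoculture, their log2 ratios correlated across probes at -0.39 for P114, -0.09 for CMT-U309 and 0.26 for CMT-U27, and probes are not independent replicates. P114 replicate 1 had a mean correlation of -0.30 with the 4 arrays of the other lines, so results are also given without it or without P114. The correlations also went with dye orientation. Arrays with the co-culture in Cy3 correlated at 0.465, 0.509 and 0.612 across lines, and those in Cy5 at -0.221, 0.034 and 0.397. Arrays of opposite orientation in different lines correlated at -0.513 to 0.236, the lowest for P114 replicate 1 (-0.513 and -0.48). The part of the dye in these values was not tested. Over all 40860 probes tested, 419 (1.03%) were higher and 81 (0.198%) lower in co-culture at an unadjusted p under 0.05 and a fold over 2, and 0 passed a Benjamini-Hochberg adjusted p of 0.05 (limma). At an unadjusted p under 0.05 with no fold limit, 2362 (5.78%) were higher and 1696 (4.15%) lower. In whole cultures, fewer cells of a type and less RNA per cell cannot be told apart. Of 18 myeloid markers 15 were on the array. None of the 15 passed the thresholds in co-culture, and ITGAM and SPI1 were detected in no channel. Only 3 of the 15 were detected in all 12 channels. Their summed linear signal ran from 1652 to 19944.5 in the 6 co-culture channels and from 1710 to 12994 in the 6 monoculture channels. Of the 15 mean log2 ratios 10 were above 0, with a median of 0.13. LCP1 was above 0 on 6 of 6 arrays (0.19 to 0.36). S100A8 (0.88 and 0.82) and S100A9 (0.84 and 0.76) were above 0 on both CMT-U27 arrays. The means of these genes over the lines were 0.26, 0.08 and -0.27. Those of TYROBP (-0.50), LAPTM5 (-0.31), PTPRC (-0.24) and CYBB (-0.12) were also below 0. TYROBP, LAPTM5 and PTPRC were near background, so their values are uncertain. They were detected in 2, 1 and 1 co-culture channels and in 4, 4 and 2 monoculture channels. CMT-U27 had the highest LCP1 and S100A8 in monoculture too, at log2 signals of 12.24 and 12.63. The part of myeloid transcripts in the ratios of MT1E was not tested. Among 7 epithelial markers EPCAM was lower in co-culture on 6 of 6 arrays, with a mean of -0.47. ESRP1 went the other way, above 0 on 5 of 6 arrays with a mean of 0.49. Of the 7 means 3 were above 0, the median was -0.10, and 0 passed the thresholds. Between lines 6 of these 7 were highest in CMT-U27 past the adjusted threshold, whereas KRT14 was lowest there, and 7 of 9 mesenchymal markers were higher in both P114 and CMT-U309 than in CMT-U27, all but PDGFRB and THY1.

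The chrUn probe of MT1E was higher in co-culture on 6 of 6 arrays. Its log2 ratios of co-culture over monoculture were 0.54 and 0.69 in P114, 0.41 and 0.78 in CMT-U27, and 0.78 and 1.00 in CMT-U309. The mean of the 3 lines was 0.70 ± 0.16 (SD, n = 3), a 1.63-fold higher signal. In each line both co-culture channels were above both monoculture channels, and the mean stayed between 0.61 and 0.75 when any 1 line was left out. As MT1E was chosen for its rise, this evenness is a description and no test. The fold was below 2, so that it was not among the probes past the study's thresholds. Of all probes tested, 2.51% were higher on all 6 arrays, and 3.97% of those well above background in every channel.

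The other MT1E probes gave smaller and less even values. On chr2 probe A the ratios were -0.26 and 0.30 in P114, -0.0034 and 0.91 in CMT-U27, and -0.15 and 0.46 in CMT-U309, with a mean of 0.21 ± 0.22 (SD, n = 3 lines). Within each line the array with the co-culture in Cy3 gave the higher value, and the co-culture and monoculture channels overlapped in every line. On chr2 probe B the ratios were 0.21 and -0.0089 in P114, 0.65 and 0.76 in CMT-U27, and 0.54 and 0.33 in CMT-U309, with a mean of 0.41 ± 0.30. Here CMT-U27 and CMT-U309 were higher in co-culture and P114 was not clearly so. The ratio of the chrUn probe exceeded that of chr2 probe A by 0.49 ± 0.31 and that of chr2 probe B by 0.29 ± 0.35 (SD, n = 3 lines), on 5 of 6 arrays each. The rise therefore had the size of 0.70 on 1 of 3 probes only, and when the median of the 3 probes was taken in each line, the mean over the lines was 0.38.

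**Figure D1:**
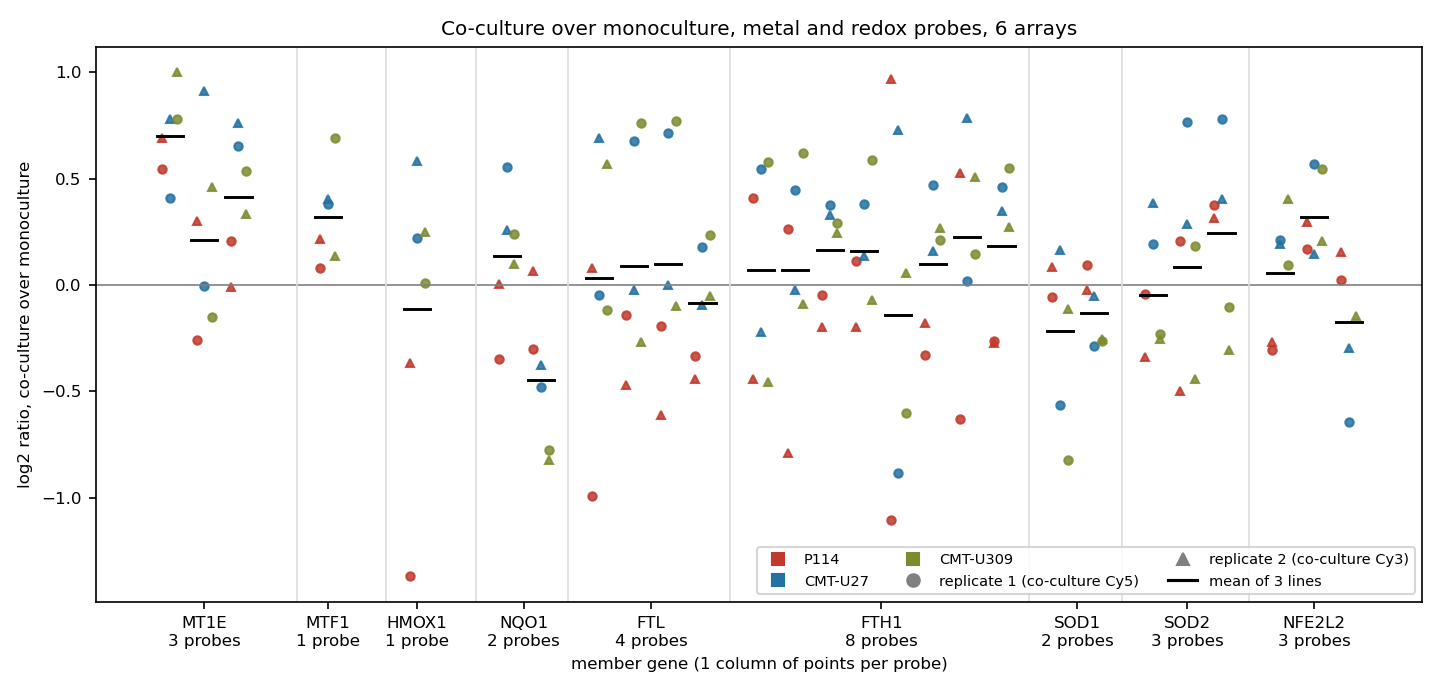
Log2 ratio of co-culture over monoculture (vertical axis) on each of the 6 arrays for the 27 member probes, grouped by gene along the horizontal axis. Colours are cell lines, circles and triangles the 2 dye orientations, and black bars the mean of the 3 lines. The first MT1E column, the chrUn probe, has all 6 points between 0.41 and 1.00, while most other probes have points on both sides of 0.

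MT2A showed no such rise. Its log2 ratios were 0.04 and 0.04 in P114, -0.01 and 0.34 in CMT-U27, and -0.03 and 0.12 in CMT-U309, with a mean of 0.08 (SE 0.11, adjusted p = 0.773, limma). All but 1 of these values lay between -0.03 and 0.12. MT4, a metallothionein of stratified epithelia, gave a mean of 0.09 (SE 0.13, adjusted p = 0.818), with values above 0 on the 3 arrays with the co-culture in Cy5 and below 0 on their dye swaps.

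The levels of MT1E and MT2A differed between the lines. On the chrUn probe the log2 scaled signals of P114 were 13.45 and 13.35 in co-culture and 12.90 and 12.66 in monoculture. Those of CMT-U27 were 10.97 and 11.17 in co-culture and 10.56 and 10.40 in monoculture, and those of CMT-U309 were 10.32 and 10.25, and 9.54 and 9.25. All 4 P114 channels were thus above every channel of the other lines, as they were for 7.08% of all probes. P114 exceeded CMT-U309 9.49-fold on the chrUn probe, 9.20-fold on chr2 probe A and 9.31-fold on chr2 probe B. The line difference passed the F test on each probe, with adjusted p = 1.05e-07, 9.26e-08 and 2.03e-07 (limma over 6 RNA samples, Benjamini-Hochberg over all probes). At this threshold 55.0% of all probes differed between lines, and the range between lines of MT1E was wider than that of 94.2% of probes.

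The position of CMT-U27 depended on the probe. The chrUn probe was 1.91-fold higher in CMT-U27 than in CMT-U309 (log2 difference 0.93, SE 0.14, adjusted p = 0.000352), a contrast that 46.6% of all probes passed. On chr2 probe A the same difference was 0.08 (SE 0.15, adjusted p = 0.723) and on chr2 probe B 0.29 (SE 0.16, adjusted p = 0.171), so these neighbours in the order did not differ beyond their spread. MT2A was likewise highest in P114, where its channels lay between 14.69 and 14.92, against 11.90 to 12.29 in CMT-U27 and 12.29 to 12.41 in CMT-U309. P114 exceeded CMT-U27 6.95-fold (adjusted p = 1.12e-07) and CMT-U309 5.48-fold (adjusted p = 5.93e-07), contrasts passed by 41.3% and 29.5% of all probes. For MT2A, CMT-U27 was the lowest line, 0.34 below CMT-U309 on the log2 scale (adjusted p = 0.0552), which did not pass. MT4 did not pass between lines (F adjusted p = 0.137). Each line was hybridized on its own slide, so line and slide cannot be told apart, and both cultures of a line shared their arrays.

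**Figure D2:**
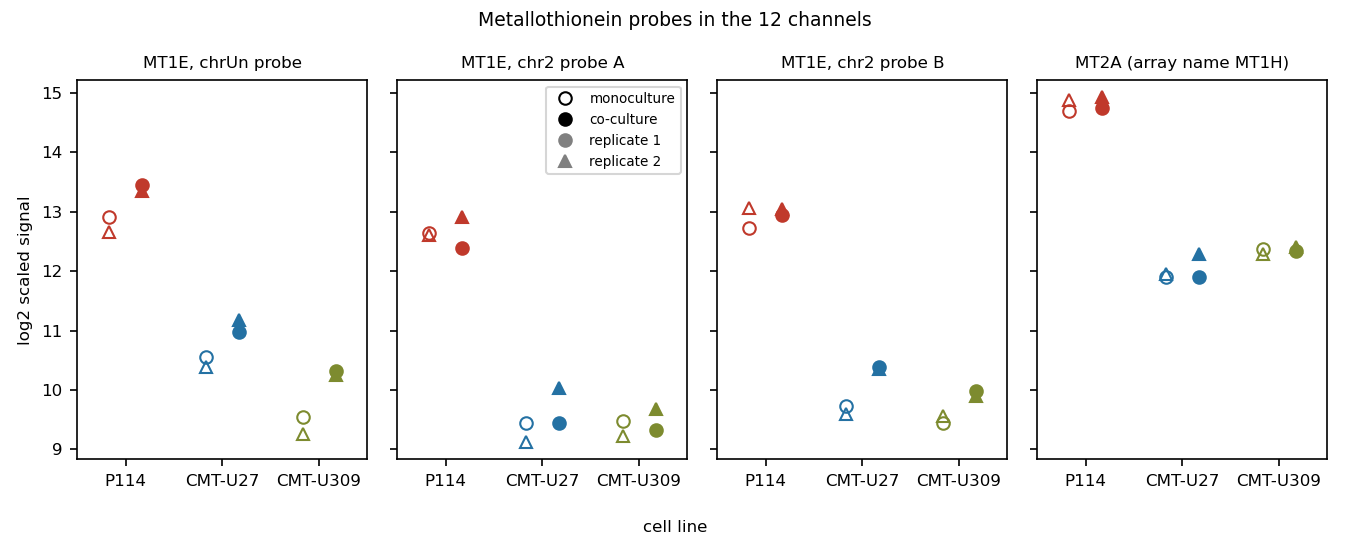
Log2 scaled signal (vertical axis) of the 3 MT1E probes and the MT2A probe in the 12 channels, by cell line along the horizontal axis, with open symbols for monoculture, filled symbols for co-culture, and circles and triangles for the 2 arrays of a line. Heights may be compared within a panel but not between probes. P114 is highest in every panel, and filled symbols lie above open ones in all lines only for the chrUn probe of MT1E.

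A probe of no named gene, A_11_P0000012478, reads the strand opposite to chr2 probe A and shares 50 bases with it. Its signal was also highest in P114, by 2.57 over CMT-U309 and 2.32 over CMT-U27 on the log2 scale, and 6 of 12 channels detected it. Its ratios ranged from -1.74 to 1.34 and had the sign of the dye orientation on every array, below 0 with the co-culture in Cy5 and above 0 with the co-culture in Cy3.

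MTF1, the activator of metallothionein transcription, was slightly higher in co-culture on 6 of 6 arrays. Its log2 ratios were 0.08 and 0.22 in P114, 0.38 and 0.40 in CMT-U27, and 0.69 and 0.14 in CMT-U309, with a mean of 0.32 (SE 0.14, n = 3 lines, unadjusted p = 0.0418, adjusted p = 0.499). It did not pass the adjusted threshold, and with normexp background correction the mean was 0.04. Its level was alike in the lines to within 0.13 on the log2 scale (F adjusted p = 0.711), the narrowest range of the 9 genes, although with no scaling between channels P114 was 0.33 below CMT-U27 (adjusted p = 0.0182).

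NFE2L2 was measured by 3 probes that did not move together. On A_11_P057231 (chr36:24016758-24016817) the ratios were 0.17 and 0.30 in P114, 0.57 and 0.15 in CMT-U27, and 0.54 and 0.21 in CMT-U309, higher on 6 of 6 arrays with a mean of 0.32 (SE 0.11, unadjusted p = 0.0142, adjusted p = 0.499). On the brightest probe, A_11_P123121 (chr36:24016238-24016297), the mean was -0.17 (SE 0.13, adjusted p = 0.610), with values of 0.03 and 0.16 in P114, -0.64 and -0.30 in CMT-U27 and -0.15 on the single CMT-U309 array, since the replicate 1 spot of that line carried an outlier flag and was dropped. The third probe gave 0.06 (SE 0.14, adjusted p = 0.895). None of the 3 passed between lines (F adjusted p = 0.0606 to 0.235), and CMT-U309 had the highest signal on each. The brightest probe did pass with no scaling (adjusted p = 0.0249), quantile normalization (0.0234) or normexp (0.0128).

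HMOX1, the inducible enzyme of heme breakdown, was near background. Its probe was detected in only 2 of the co-culture channels and in 5 of the monoculture channels. The ratios were -1.37 and -0.37 in P114, 0.22 and 0.58 in CMT-U27, and 0.01 and 0.25 in CMT-U309. P114 lay below 0 and the other lines above it, and the mean of -0.11 (SE 0.29, adjusted p = 0.894) became 0.26 without P114. Between lines, HMOX1 was highest in CMT-U309, the only line in which 4 of 4 channels detected it, with log2 signals of 5.45 to 5.77 against 3.59 to 4.96 in P114 and 3.62 to 4.52 in CMT-U27 (F adjusted p = 0.0055). The CMT-U309 channels did not overlap the others, which held for 7.01% of all probes. Since 1 of 4 channels detected the probe in P114 and 2 of 4 in CMT-U27, the sizes of these ratios and differences are uncertain. The difference of 1.69 between CMT-U309 and CMT-U27 was 0.31 with normexp correction.

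NQO1 was lower in co-culture on its brightest probe and not on the other. On A_11_P123971 (chr5:82996863-82996922) the ratios were -0.30 and 0.07 in P114, -0.48 and -0.38 in CMT-U27, and -0.78 and -0.82 in CMT-U309, with a mean of -0.45 (SE 0.14, unadjusted p = 0.0105, adjusted p = 0.499). Both arrays of CMT-U27 and of CMT-U309 were below 0 and P114 was on both sides of it. Without P114 the mean was -0.61 (adjusted p = 0.00373, with 2 lines left), and without CMT-U309 it was -0.27. In the fit without P114 far more probes passed the adjusted threshold than with 3 lines, as given in the closing section. On A_11_P0000032894 (chr5:82995618-82995677), which lies upstream on the same strand, the mean was 0.13 (SE 0.13, adjusted p = 0.696). The ratio of the upstream probe exceeded that of the brightest probe by 1.03 and 0.64 in CMT-U27 and by 1.01 and 0.92 in CMT-U309, but by -0.05 and -0.06 in P114. This gap of 0.58 ± 0.56 (SD, n = 3 lines) was not tested. Between lines NQO1 was highest in P114 on the brightest probe, 1.76-fold over CMT-U27 (adjusted p = 0.00386) and 1.51-fold over CMT-U309 (adjusted p = 0.0273). On the upstream probe P114 was 2.0-fold over CMT-U27 (adjusted p = 0.000678), but it did not differ from CMT-U309 beyond the spread (log2 difference 0.17, SE 0.16, adjusted p = 0.462). With no scaling the line difference of the brightest probe did not pass (adjusted p = 0.0572), nor without a trend in eBayes (adjusted p = 0.0745).

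The ferritin chains showed small ratios of mixed sign. Some of their probes read near-identical copies or the opposite strand, and the sequences show which. A pair of FTL probes (NM_001024636, chr1:110306170-110306229 and chr1:110306173-110306348) overlap by 57 bases and differ at 2 of them, in capitals.
FTL, A_11_P138526: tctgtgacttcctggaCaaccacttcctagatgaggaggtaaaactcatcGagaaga
FTL, A_11_P050551: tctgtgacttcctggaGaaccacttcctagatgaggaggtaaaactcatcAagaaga
A_11_P200133 is placed at chr23:19335568-19335627, away from the chr1 gene, and A_11_P000006213 (chr1:110307101-110307160) reads the opposite strand. They share the 26 bases in capitals as reverse complements, and the last 38 bases of the former are shown.
FTL, A_11_P200133: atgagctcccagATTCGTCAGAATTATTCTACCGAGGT
FTL, A_11_P000006213: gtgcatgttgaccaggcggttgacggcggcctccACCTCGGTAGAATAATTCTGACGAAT
For FTH1, A_11_P052101 (chr18:57497897-57497956) and A_11_P050026 (chr11:42066491-42066554) share a run of 47 bases, in capitals, so that transcripts of both places can bind either probe.
FTH1, A_11_P052101: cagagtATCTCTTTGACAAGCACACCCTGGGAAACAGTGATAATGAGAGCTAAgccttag
FTH1, A_11_P050026: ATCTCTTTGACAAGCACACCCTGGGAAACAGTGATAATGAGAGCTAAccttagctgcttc

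FTL, the light chain, had ratios of -0.14 and -0.47 in P114, 0.68 and -0.02 in CMT-U27, and 0.76 and -0.27 in CMT-U309 on its brightest probe, A_11_P050551. The mean was 0.09 (SE 0.15, adjusted p = 0.832), and it was 0.29 without P114. In each line the array with the co-culture in Cy5 gave the higher value. The other sense probes gave means of 0.10 and -0.08, and the opposite-strand probe 0.03 with the dye order turned round. Between lines the brightest probe did not pass the F test (adjusted p = 0.0705; 0.0327 with scaling to the 75th percentile), while A_11_P138526 and A_11_P200133 did (adjusted p = 0.0388 and 0.0238), with P114 1.54-fold and 1.52-fold over CMT-U27.

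FTH1, the heavy chain with ferroxidase activity, was read by 6 probes on the coding strand and 2 on the other. The means of the 6 ranged from 0.07 to 0.18 and none passed (adjusted p = 0.654 to 0.870). On the brightest, A_11_P052101, the ratios were 0.26 and -0.79 in P114, 0.45 and -0.02 in CMT-U27, and 0.62 and -0.09 in CMT-U309, and the mean of 0.07 became -0.10 without P114 replicate 1. The line difference was clear: CMT-U309 was lowest on all 6, by 1.14 to 1.76 below P114 on the log2 scale (2.20-fold to 3.38-fold), with F adjusted p from 2.89e-05 to 0.000415. P114 and CMT-U27 did not differ beyond their spread on any of the 6 (adjusted p = 0.132 to 0.442). With quantile normalization over the 12 channels the P114 to CMT-U309 difference of the brightest probe was 0.61 (adjusted p = 0.081), which did not pass, and it was 0.55 with normexp and 0.69 with no scaling. Of the opposite-strand probes, A_11_P212608 gave 0.23 (SE 0.14). A_11_P136781 gave -0.14 (SE 0.22), was detected in 8 of 12 channels and shares 44 bases with a probe for the opposite strand of RNF115, so its gene is uncertain.

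SOD1 and SOD2 were highest in CMT-U27, and none of their probes passed the thresholds for co-culture. SOD1 on A_11_P0000019760 (chr31:29563247-29563306) had ratios of 0.09 and -0.02 in P114, -0.29 and -0.05 in CMT-U27, and -0.26 and -0.25 in CMT-U309, a mean of -0.13 (SE 0.12, adjusted p = 0.674). Its 4 channels in CMT-U27 lay between 15.07 and 15.36 and those of the other lines between 13.74 and 14.16, with no overlap, as was so for CMT-U27 in 16.4% of all probes. This was 2.34-fold over P114 (adjusted p = 7.73e-05) and 2.37-fold over CMT-U309 (adjusted p = 5.77e-05), and P114 and CMT-U309 did not differ beyond their spread (adjusted p = 0.942). An opposite-strand SOD1 probe was also highest in CMT-U27, 1.73-fold over P114 and 1.95-fold over CMT-U309. SOD2 showed the order CMT-U27, P114, CMT-U309 on each of its 3 probes, with every neighbouring pair past adjusted p of 0.05 and a span of 4.47-fold to 4.58-fold. On the brightest, A_11_P0000021807 (chr1:51988276-51988335), the ratios were -0.04 and -0.34 in P114, 0.19 and 0.39 in CMT-U27, and -0.23 and -0.25 in CMT-U309. CMT-U27 was above 0 and both other lines below it, and the mean was -0.05 (SE 0.13, adjusted p = 0.904). A_11_P110801 gave a mean of 0.08 (SE 0.14, adjusted p = 0.836) and A_11_P137421 of 0.25 (SE 0.16, adjusted p = 0.566). The CMT-U27 arrays were above 0 on both (0.77 and 0.29, 0.78 and 0.41). P114 and CMT-U309 were each on both sides of 0 on the former. On the latter P114 was above 0 and CMT-U309 below it.

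**Figure D3:**
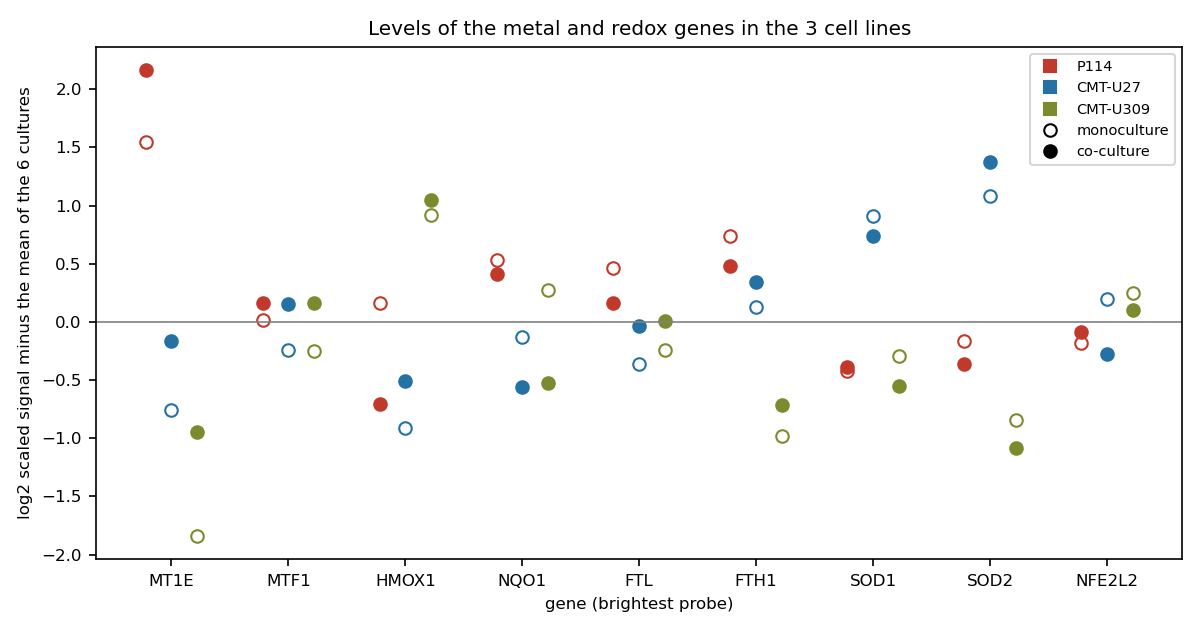
Log2 scaled signal of the brightest probe of each of the 9 genes (horizontal axis) in the 6 cultures, as the difference from the mean of the 6 (vertical axis). Colours are cell lines, open symbols monoculture and filled symbols co-culture. MT1E spreads widest with P114 on top, SOD1 and SOD2 are highest in CMT-U27, FTH1 is lowest in CMT-U309, and MTF1 lies within a narrow band.

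None of the 9 genes, and none of their 27 probes, passed the thresholds for co-culture. At an unadjusted p under 0.05, 2 of the 24 probes other than those of MT1E were higher (MTF1 and A_11_P057231 of NFE2L2) and 1 lower (A_11_P123971 of NQO1), with a lowest adjusted p of 0.499. These counts were near the 5.78% and 4.15% of all probes. Of the same 24 probes, 2 were higher on every array measured (2.51% of all probes were, and 3.97% of those well above background throughout) and 0 were lower on every array (1.74% of all probes were). Between lines, 6 of the 9 genes passed on their brightest probe (MT1E, HMOX1, NQO1, FTH1, SOD1 and SOD2), which is 66.7% against 61.6% of all gene symbols by brightest probe. Of the 27 probes 20 did (74.1%), against 55.0% of all probes and 71.4% of those well above background in every channel, as 25 of the 27 were.

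A wider list of 137 genes for metal handling and antioxidant defense gave 109 tested genes. Of these, 1 (STEAP4) was higher past the co-culture thresholds and 0 were lower. Among the 13174 gene symbols tested by brightest probe, 86 were higher and 23 lower. The median log2 ratio of the list was -0.02 against 0.0001 over these symbols, and 49.5% against 50% were above 0. At an unadjusted p under 0.05, 9 of the 109 genes were higher and 10 lower. Of 23 zinc transport genes 3 were higher and 1 lower, of 19 iron handling genes 1 and 4. Of 22 glutathione genes 2 were higher and 3 lower, and of 13 other antioxidant genes 2 and 0. For 3 heme breakdown genes the counts were 1 and 1, and for 11 thioredoxin and peroxiredoxin genes 0 and 1. The 10 copper handling, 6 NRF2 control and 2 metallothionein genes gave 0 and 0. Over all 13174 gene symbols by brightest probe, 738 were higher and 507 lower by the same measure. STEAP4, a metalloreductase of iron and copper uptake, had ratios of -0.43 and 0.61 in P114, 2.43 and 1.97 in CMT-U27, and 0.48 and 1.14 in CMT-U309. It was clearly higher in CMT-U27, higher in CMT-U309 and on both sides of 0 in P114, with a mean of 1.03 (SE 0.31, unadjusted p = 0.008, adjusted p = 0.499). Without CMT-U27 the mean was 0.45, without P114 it was 1.51 (adjusted p = 0.00205), and without CMT-U309 it was 1.15 (adjusted p = 0.00346). These fits rest on 2 lines each. Without P114 far more probes passed the adjusted threshold than with 3 lines, as given in the closing section. With normexp correction the mean of STEAP4 was 0.38.

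Between lines 86 of the 109 genes (78.9%) passed, against 61.6% of all gene symbols by brightest probe. Of all probes well above background in every channel 71.4% passed, and 85 of the 110 listed genes on the array were that bright. Of the 10 genes with the widest ranges among those well above background in every channel, 5 were highest in CMT-U27, 3 in P114 and 2 in CMT-U309. The split was similar over the array: of 8111 gene symbols that passed, 3935 were highest in CMT-U27, 2065 in P114 and 2111 in CMT-U309. GSTP1, a glutathione transferase, was 113-fold higher in CMT-U27 than in P114 and 81.4-fold higher in CMT-U309 than in P114. GPX2, a glutathione peroxidase of epithelia, was 68.8-fold higher in CMT-U27 than in CMT-U309, CAT (catalase) 29.4-fold higher than in P114, MGST2 25.7-fold higher than in CMT-U309 and TXNIP, an inhibitor of thioredoxin, 8.66-fold higher than in P114. STEAP4 was lowest in CMT-U27, 11.8-fold below P114, as was SLC39A14, a zinc and iron importer, 5.17-fold below CMT-U309. GPX7 was highest in CMT-U309, 8.03-fold over CMT-U27, and STEAP1 highest in P114, 7.50-fold over CMT-U309. MT2A was the only 1 of these 10 widest-range genes in which P114 passed the adjusted threshold over both other lines. This was not particular to MT2A in the wider list, where 20 of the 86 genes that passed were highest in P114. STEAP2 (2.87-fold over CMT-U27 and 2.43-fold over CMT-U309) and ACO1 (3.05-fold and 2.12-fold) also passed over both. MGST1, dim in P114 in 4 of 4 channels, was at least 177-fold higher in CMT-U27 than in P114, a bound set by the lowest signal well above background in each P114 channel after loess and Aquantile normalization. That bound was named after its values were seen, and it is not on the scale of the folds above.

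**Figure D4:**
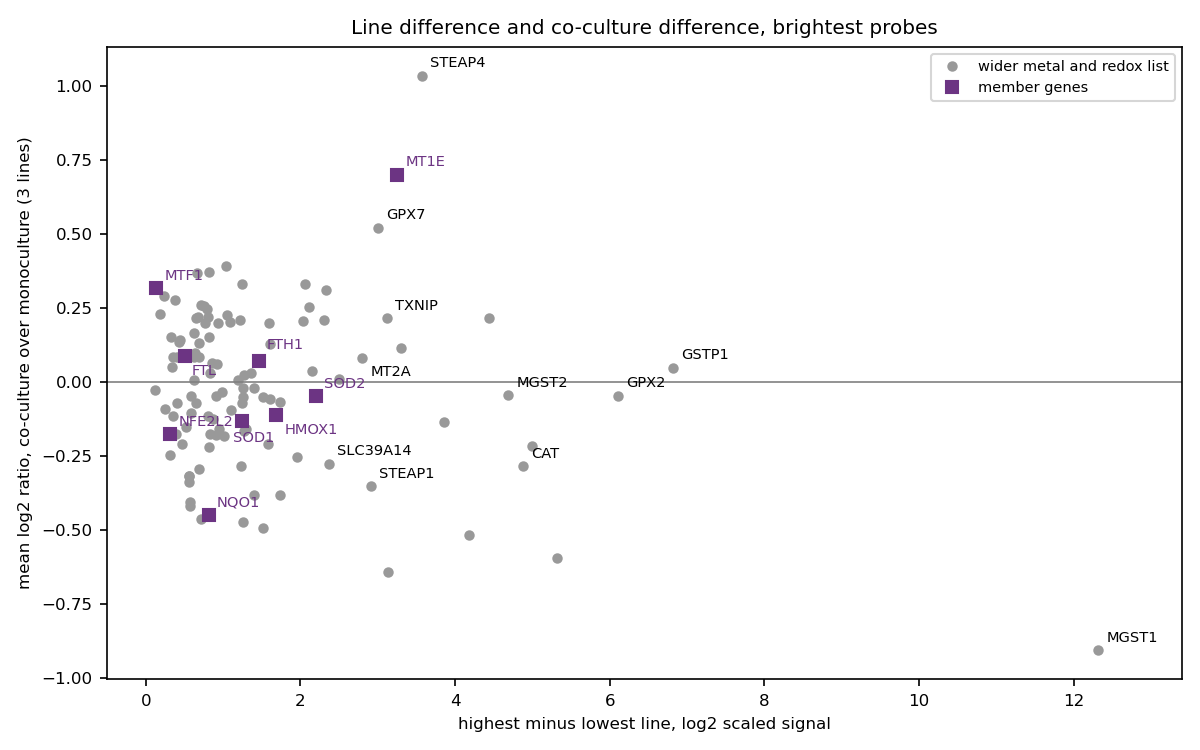
Mean log2 ratio of co-culture over monoculture (vertical axis, 3 lines) against the log2 difference between the highest and the lowest line (horizontal axis), for the brightest probe of each of the 9 member genes (purple squares) and 109 genes of the wider list (grey points). MT1E, STEAP4 and GPX7 combine a range over 3 between lines with a ratio above 0.5, GSTP1 and GPX2 differ between lines with ratios of 0.05 and -0.05, CAT has a ratio of -0.28, and MT2A has a range of 2.80 with a ratio of 0.08.

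The genes whose log2 signal over the 12 channels was most like that of the MT1E chrUn probe, among 7847 genes well above background throughout, were WNT7B (Pearson r = 0.98), CA9, the hypoxia-induced carbonic anhydrase (0.98), GATA3, a luminal transcription factor (0.97), SYTL1 (0.97) and NDUFB9, a subunit of respiratory complex I (0.97). All 5 were highest in P114, and CA9 had the widest span, from 7.30 in CMT-U309 to 13.99 in P114 on the log2 scale. The channels share slides and lines, so that these correlations describe the line pattern. Over the 6 ratios the most alike were TEX30 (0.98), GSTCD (0.98), PRR11 (0.98), TPM3 (0.97) and C11H9orf156 (0.96), whose own mean ratios lay between -0.22 and 0.10, so that they shared the order of the arrays and not the rise.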

How the data were processed

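Per the file headers, the authors extracted spot intensities from 6 Agilent 2-colour arrays with Feature Extraction 10.10.1.1 (10.7.3.1 in the submitters' processing notes). The deposited processed intensities are background-subtracted and dye-normalized within the array. The deposited value table holds log10 ratios of co-culture over monoculture. These equalled the dye ratios of the scanner, turned to that direction, to within 5.0e-06. Here processed signals were log2-transformed, channels were scaled to the same median, control spots and outlier-flagged spots were left out, probes with a maximal scaled signal of 10 or less were removed, and spots of a probe were averaged. Both arrays of a line hold the same RNA and were averaged to 1 value per line. The mean of 3 lines was tested against 0 with limma 3.58.1 (lmFit, eBayes with trend, R 4.3.3), and levels between lines were tested over 6 RNA samples with condition as a term. Both were adjusted by Benjamini-Hochberg over 40860 probes, and the methods' thresholds (unadjusted p under 0.05, fold over 2) were also read. Both tests were tested on simulated data with 200 changed probes. A gene is represented by its brightest probe. Of the wider list, genes past the methods' thresholds and the 10 with the widest line range among those well above background in every channel are named, with the 5 genes most like MT1E by each measure. The members and lists were chosen with earlier results of these data known. Groups came from the sample labels. Alternatives covered background correction, scaling, filters, tests, probe summaries, the replicate number and leaving out arrays and lines. The number of arrays limits the precision. Sequences come from the array files.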

Additional observations from a re-analysis of the deposited data

Results flagged for a closer look

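Several member probes moved in opposite directions in 2 lines, with both arrays of one line above 0 and both of the other below 0. These differences between lines in the log2 co-culture ratio were not tested. The ratio of HMOX1 was higher in CMT-U27 than in P114 by 1.27 and in CMT-U309 than in P114 by 0.997, but the probe was well above background in only 1 of 4 channels of P114 and 2 of 4 of CMT-U27, so these sizes are uncertain. For FTL probe A_11_P138526 CMT-U27 exceeded P114 by 0.759, with 1 of the CMT-U27 arrays at 3.52e-05. For FTH1 the same held on 3 probes: CMT-U27 exceeded P114 by 0.475 and CMT-U309 exceeded P114 by 0.392 on A_11_P059261, by 0.568 and 0.493 on A_11_P159623, and by 0.671 and 0.678 on A_11_P212868. SOD2 probe A_11_P0000021807 was higher in CMT-U27 than in P114 by 0.48 and than in CMT-U309 by 0.531, and on A_11_P137421 P114 exceeded CMT-U309 by 0.55 and CMT-U27 exceeded CMT-U309 by 0.799. NFE2L2 moved apart in different ways on its probes: on A_11_P0000023915 CMT-U27 and CMT-U309 exceeded P114 by 0.489 and 0.535, whereas on A_11_P123121 P114 exceeded CMT-U27 by 0.562. No member probe had an array far from the other 5 by Dixon's test.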

How the results depend on the processing

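Counts of probes changed in co-culture moved with the processing, while 15360 to 27876 probes differed between lines under every alternative run. Against 419 higher and 81 lower probes, normexp with loess gave 3 and 0, probes well above background in all 12 channels 25 and 0, and the methods' t-test 82 and 35. Leaving out 1 array or line gave 31 to 2097 higher, 50 to 703 lower and 0 to 6329 past the adjusted threshold, where the highest counts of 2097, 575 lower and 6329 came without P114 and 1835 and 703 without P114 replicate 1. The cause of these shifts was not tested. Under the alternatives run, the co-culture ratio of MT1E was 0.38 (from the median of its probes in each line) to 0.76. MT1E was chosen for its rise, so this kept direction is a description and no test. With 1 array left out, chr2 probe A gave means of 0.06 to 0.36. The P114 over CMT-U309 difference of MT1E was 2.48 to 3.34 on the log2 scale, and 0 member genes passed the methods' thresholds. A line left with 1 array was assumed to vary like the others. The replicate number is the dye orientation. Its block, fitted over the 6 arrays with a mean for each line and so with the error between arrays of the same RNA, gave 3015 probes past the adjusted threshold against 0, with NQO1, STEAP4, CAT and GPX7 among them (adjusted p = 0.00195, 0.000289, 0.0465 and 0.0137). Same-numbered arrays correlated from -0.22 to 0.61, and whether the number also paired the cultures was not tested. The mean ratio changed sign for GPX2 with normexp (0.047), and for SOD2 (0.059) and NFE2L2 (0.18) with the median over probes. The MTF1 line difference was -0.33 with no scaling. With 1 array or line left out, signs turned for HMOX1 (-0.37 to 0.26), SOD2 (-0.22 to 0.050), GPX2 (-0.15 to 0.034), FTL (-0.083 to 0.29), GSTP1 (-0.11 to 0.19), FTH1 (-0.10 to 0.25), MGST2 (-0.13 to 0.037) and the MTF1 line difference (-0.065 to 0.33).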
